A study of Ambystoma mexicanum with 12 samples.

Results

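The genes described here are apolipoproteins and other carriers of lipid, together with the lipase that takes fat out of lipoproteins, in the spinal cord of the axolotl (Ambystoma mexicanum), a salamander that regenerates its cord. The 8 genes were chosen by symbol: APOA1, APOB, APOD, APOE, FABP1, FABP3, FABP4 and LPL. Of these, 7 had a row among the 15091 gene symbols measured, and all 7 reached a mean of 1 TPM (relative transcript abundance, which sums to 1000000 in each library) and were among the 13824 genes tested. FABP4 had no row and is not analysed here. RNA sequencing was carried out on 12 libraries in 4 groups of 3: uninjured cords, cords 4 days post injury (4 dpi) that had received a control inhibitor (4 dpi control), cords 4 dpi with a miR-200a inhibitor (4 dpi inhibitor), and uninjured cords with the miR-200a inhibitor (uninjured inhibitor). The miR-200a inhibitor is an oligonucleotide that blocks a microRNA of axolotl glial cells. Both inhibitors were injected into the central canal and electroporated, in the injured animals when the cord was cut and a second time before collection, and the segment around the lesion was microdissected. The labels do not state whether the uninjured cords without the inhibitor were injected. In any comparison that includes them, neither injury nor the inhibitor can be told apart from the procedure. Each library is a pool of cords, of 10 animals of 2 to 3 cm per the labels, whereas the methods of the study give a smaller pool of larger animals, the age is not stated, and at the size given in the methods sex cannot yet be told. The tissue was whole cord with whatever adhered to it, so fewer cells of a type and less RNA per cell cannot be told apart. The replicates are separate libraries, and p-values measure the spread between these pools.

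Apolipoproteins are the protein part of lipoproteins, the particles that move cholesterol, triglyceride and phospholipid through blood and tissue fluid. In the mammalian central nervous system ApoE, secreted mainly by astrocytes and microglia, is the main lipid carrier, whereas ApoB and ApoA1 are made chiefly in liver and gut and organise low density and high density lipoproteins. Lipoprotein lipase frees fatty acids from lipoprotein triglyceride, and inside the cell fatty acid binding proteins (FABPs) hold these fatty acids in solution on the way to oxidation, storage or signalling. ApoD is a small secreted lipocalin that binds arachidonic acid and other hydrophobic ligands and is produced by glia and fibroblasts after nerve damage in mammals.

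The human gene identifiers paired with the rows were ENSG00000118137 for APOA1, ENSG00000084674 for APOB, ENSG00000189058 for APOD, ENSG00000130203 for APOE, ENSG00000163586 for FABP1, ENSG00000121769 for FABP3 and ENSG00000175445 for LPL. Axolotl contigs had been assigned to human proteins by their best match, and counts were summed per symbol, so a row can hold more than 1 axolotl gene of a family and the FABP rows in particular are uncertain at that level. The APOB row joined 2 human transcripts, the FABP3 row joined 3, and the other rows had 1 each. In the RefSeq annotation of the axolotl, used for names only, 6 of the 8 symbols have a gene. APOA1 and FABP4 were the symbols without one, so an axolotl gene behind the APOA1 row was not identified by name. APOE lies beside APOC1 in that annotation, and APOC1 has no row in the table and is not analysed here.

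TPM are corrected for contig length, and the depth of sequencing behind them is unknown. The libraries carry the numbers 1 and 5 (uninjured, with 1 library unnumbered), 1, 5 and 6 (4 dpi control) and 5, 6 and 7 (both inhibitor groups). The titles of the numbered uninjured libraries carry the tag Cntl, as those of 4 dpi control do, and that of the unnumbered library does not. What the tag means for the uninjured cords is not stated. Both libraries numbered 1 stood apart: their 50 most abundant genes held 17.3% and 19.5% of TPM, against 22.3% to 32.9% in the other 10. The uninjured libraries also differed in tissue makeup. In library 1, the unnumbered library and library 5, muscle genes summed to 10154, 39910 and 25782 TPM. Neuron genes summed to 14776, 2685 and 5017 TPM in the same order. The part of this makeup in the levels of the 7 genes was not tested. Levels also shifted as a whole between groups. Over the genes tested, the median difference from uninjured cords on the log2 scale was -0.08 in 4 dpi control, -0.81 in 4 dpi inhibitor and -1.10 in uninjured inhibitor cords. From 4 dpi control to 4 dpi inhibitor cords it was -0.69, and from uninjured inhibitor to 4 dpi inhibitor cords 0.28. Dividing each library by its median-of-ratios factor (the typical ratio of its genes to their mean over libraries) brought these medians to between -0.17 and 0.01. A change is therefore given on TPM as deposited, and on the scaled values wherever the scaling alters the call. Where the levels of 2 groups are said to overlap or not, this is on TPM as deposited unless stated, and carries no test. The share of all genes without overlap is not given here.

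By group mean the lipid carriers of the uninjured cord were led by APOE and FABP3. In the unnumbered library FABP3 was highest, and APOD (163 TPM) stood level with APOE (162 TPM). APOE ranked higher among all transcripts in every library of the other 3 groups. FABP3 ranks in uninjured libraries (536 to 2665) overlapped those in 4 dpi control (397 to 705) and uninjured inhibitor libraries (350 to 791). The summed level of the 7 genes was 322 to 642 TPM in the uninjured libraries, 1060 to 2097 in 4 dpi control, 848 to 1320 in uninjured inhibitor and 1400 to 2157 in 4 dpi inhibitor libraries. Every library of the other 3 groups lay above the highest uninjured library in this sum. By mean level in uninjured cords the order was APOE, FABP3, APOD, APOA1, LPL, APOB and FABP1, with APOE and FABP3 within their spread of each other. In 4 dpi inhibitor cords it was FABP3, APOE, APOD, FABP1, LPL, APOA1 and APOB, again with the first pair within their spread, so that FABP1 had moved from last to the fourth place. Its last place in uninjured cords rests on library 1, where APOB was at 4.27 TPM. In the other uninjured libraries APOB lay below FABP1. In rank among all 15091 genes, where 1 is the most abundant, APOE stood at 481 to 1368 in uninjured libraries and at 69 to 202 in 4 dpi control libraries. FABP1 moved from ranks of 12385 to 13917 in uninjured libraries to 2798 to 5351 in 4 dpi control libraries.

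**Figure D1:**
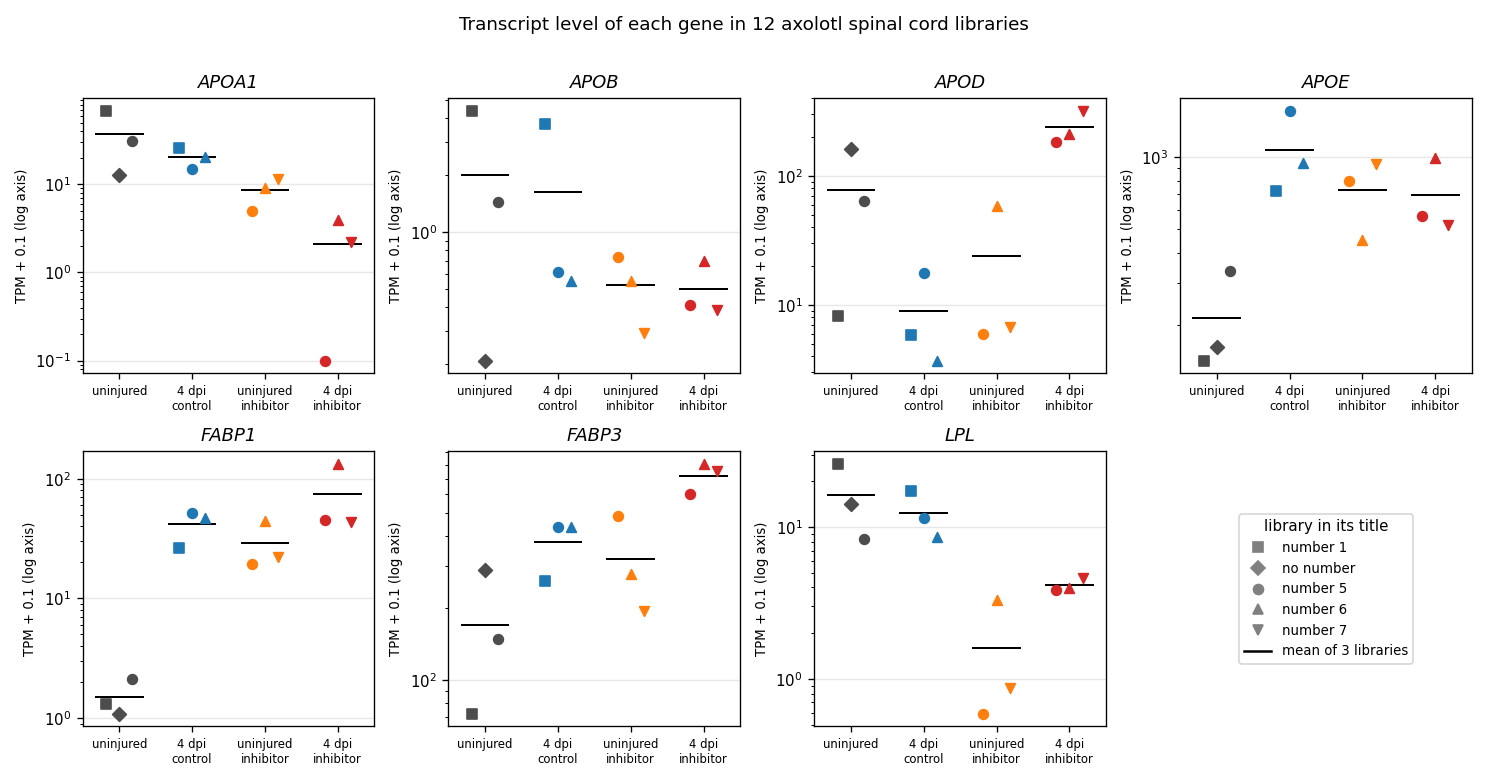
TPM + 0.1 on a log axis for the 7 genes in each of the 12 libraries, by group. Each point is 1 library, its shape gives the number in the library's title, and the bar is the mean of 3 libraries. The 3 uninjured libraries lie at 0.990 to 2.03 TPM of FABP1, below every other library, and the 3 libraries of 4 dpi inhibitor hold the highest APOD values, 182 to 320 TPM.

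**Figure D2:**
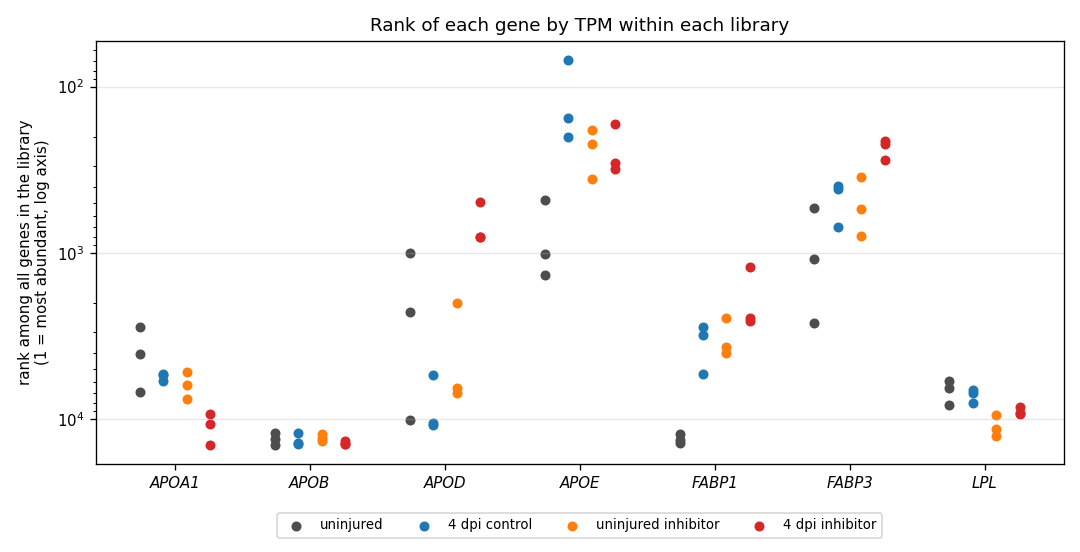
Rank of each gene by TPM within each library on a reversed log axis, so that more abundant genes stand higher; each point is 1 library, coloured by group. APOE reached rank 69 in 1 library of 4 dpi control, and APOB lay between ranks 12133 and 14304 in all 12 libraries.

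APOE, the apolipoprotein that astrocytes and microglia secrete in mammals, was by mean the most abundant of the 7 genes in 3 of the 4 groups. Its level was higher in every other group than in uninjured cords. It was at 142, 162 and 336 TPM in the uninjured libraries (213 ± 107, SD, n = 3; the middle value is the unnumbered library). In 4 dpi control libraries it was at 722, 1564 and 943 TPM (1076 ± 437). All 3 values exceeded the highest uninjured library. In uninjured inhibitor libraries APOE was at 800, 454 and 941 TPM (731 ± 251), and in 4 dpi inhibitor libraries at 569, 998 and 524 TPM (697 ± 262). These 2 groups overlapped each other and the 4 dpi control group, and neither overlapped the uninjured one.

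APOA1, the main protein of high density lipoprotein in mammals, was lowest in 4 dpi inhibitor cords. Its level was 68.3, 12.6 and 30.7 TPM in uninjured libraries, a wide spread in which library 1 was highest and the unnumbered library lowest. In 4 dpi control libraries it was at 25.7, 14.7 and 20.3 TPM (20.3 ± 5.51), inside the uninjured range. It was at 4.85, 9.06 and 11.3 TPM in uninjured inhibitor libraries (8.41 ± 3.29). In 4 dpi inhibitor libraries APOA1 was listed at 0 in library 5 and was at 3.86 and 2.14 TPM in libraries 6 and 7, below every other library of the study. The size of a fold change against that group depends on the 0.1 TPM added before taking logs.

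APOB, the large protein on which very low and low density lipoproteins are built, was close to absent. The libraries numbered 1 were highest, with 4.27 TPM (uninjured) and 3.63 TPM (4 dpi control), and the other 10 libraries lay between 0.108 and 1.34 TPM. APOB passed the test in none of the 5 comparisons, with adjusted p from 0.372 to 0.995, and passed under 2 of the alternatives tried, both as lower: with library weights in 4 dpi inhibitor against uninjured cords (adjusted p = 0.0299), and without the unnumbered uninjured library in uninjured inhibitor against uninjured cords (adjusted p = 0.0417).

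APOD, the lipocalin, varied widely within 3 groups and was high throughout only in 4 dpi inhibitor cords. In uninjured libraries it was at 8.09, 163 and 64.2 TPM, where the unnumbered library was highest and library 1 lowest. The 4 dpi control libraries had 5.75, 17.5 and 3.60 TPM, low values that overlapped the uninjured ones only through uninjured library 1. In uninjured inhibitor libraries APOD was at 5.89, 58.5 and 6.66 TPM, 1 high value beside a low pair. In 4 dpi inhibitor libraries it was at 182, 211 and 320 TPM (238 ± 73.0, SD, n = 3), above the highest of the other 9 libraries. Over all 12 libraries APOD covered an 89.0-fold range.

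FABP1, which in mammals carries fatty acids and bile acids in liver and gut cells, was nearly undetected in uninjured cords and clearly present in every other library. It was at 1.22, 0.990 and 2.03 TPM in uninjured libraries (1.41 ± 0.548). It was at 26.5, 51.7 and 47.2 TPM in 4 dpi control libraries (41.8 ± 13.5). The lowest of these, library 1, was still more than 10 times the highest uninjured value. In uninjured inhibitor libraries FABP1 was at 19.3, 44.6 and 22.3 TPM (28.7 ± 13.8), and in 4 dpi inhibitor libraries at 45.3, 133 and 43.7 TPM (74.0 ± 51.1). The 3 groups other than uninjured overlapped one another, and library 6 was the highest of each inhibitor group.

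FABP3, the fatty acid carrier of heart, skeletal muscle and brain in mammals, was abundant in all groups and highest in 4 dpi inhibitor cords. It was at 72.2, 290 and 149 TPM in uninjured libraries (171 ± 111), lowest in library 1. The 4 dpi control libraries had 259, 437 and 440 TPM (379 ± 103), of which library 1 lay below the highest uninjured value. Uninjured inhibitor libraries had 489, 279 and 194 TPM (321 ± 152) and overlapped both groups. In 4 dpi inhibitor libraries FABP3 was at 600, 807 and 754 TPM (720 ± 107), above all 9 other libraries.

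LPL, the lipase that releases fatty acids from lipoproteins at the cell surface, was low where the inhibitor had been given. Its level was 26.0, 14.1 and 8.18 TPM in uninjured libraries (16.1 ± 9.07) and 17.1, 11.4 and 8.50 TPM in 4 dpi control libraries (12.3 ± 4.37), which overlapped throughout. In uninjured inhibitor libraries it was at 0.490, 3.21 and 0.765 TPM (1.49 ± 1.50), and in 4 dpi inhibitor libraries at 3.77, 3.85 and 4.51 TPM (4.05 ± 0.408). The 6 inhibitor libraries all lay below the 6 others, and the 2 inhibitor groups did not overlap each other. The median of all genes was also lower in both inhibitor groups (-1.10 and -0.81 on the log2 scale against uninjured cords). On scaled values the 6 inhibitor libraries still lay lowest (at most 5.74, against at least 6.64 TPM). The 2 inhibitor groups then overlapped, with 4.08 TPM in uninjured inhibitor library 6 and 4.07 in 4 dpi inhibitor library 6.

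Injury with the control inhibitor was accompanied by more FABP1 and APOE, and no lipid carrier passed the test as lower. Of the 7 genes, 2 rose and 0 fell in 4 dpi control against uninjured cords, where 0.861% of all genes tested rose and 0.0434% fell (limma, adjusted p under 0.05). FABP1 rose by 4.79 on the log2(TPM + 0.1) scale (95% interval 3.76 to 5.82, adjusted p = 0.000281), the 11th smallest p of the 13824 genes. APOE rose by 2.37 (1.50 to 3.24, adjusted p = 0.0101). FABP1 passed under all 23 alternatives tried, whereas APOE missed the threshold with median-of-ratios scaling (log2 fold change 2.41, adjusted p = 0.0576), with a fit to only these groups (adjusted p = 0.136) and without library 5 of 4 dpi control (2.06, adjusted p = 0.0596). FABP3 differed by 1.33 (0.36 to 2.30, adjusted p = 0.288) and APOD by -2.60 (-4.85 to -0.36, adjusted p = 0.406), intervals that leave out 0 without the adjusted p passing. FABP3 passed only with library weights, with the replicate block or without the unnumbered uninjured library (adjusted p = 0.0454), and APOD only with library weights. APOA1 (-0.59) and LPL (-0.29) differed by less than their errors.

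The miR-200a inhibitor in injured cords went with more APOD and less APOA1, the only 2 of the 7 genes that passed the test in 4 dpi inhibitor against 4 dpi control cords. APOD rose by 5.0 on the log2 scale (2.75 to 7.24, adjusted p = 0.0445) and APOA1 fell by 4.37 (95% interval -6.68 to -2.06, adjusted p = 0.0492). The backgrounds were 0.629% of genes higher and 3.19% lower. Both directions were the same under all 23 alternatives, but the calls were not. With median-of-ratios scaling 0 of the 13824 genes passed (0%), 18.5% had an unadjusted p under 0.05, and APOD (5.62, adjusted p = 0.0937) and APOA1 (-3.84, adjusted p = 0.0990) were among those not called. Leaving out 1 library at a time kept both calls in 4 of 12 fits. They were lost without uninjured library 5, libraries 1 or 6 of 4 dpi control, any library of uninjured inhibitor, or libraries 5 or 7 of 4 dpi inhibitor (adjusted p up to 0.208), with log2 fold changes of 4.51 to 5.63 for APOD and -5.39 to -2.74 for APOA1 over the 12 fits. The smallest APOA1 difference, -2.74, came without library 5 of 4 dpi inhibitor, the library listed at 0. FABP3 differed by 0.96 (-0.01 to 1.93, adjusted p = 0.151), LPL by -1.53 (-2.81 to -0.24, adjusted p = 0.103), FABP1 by 0.67 (-0.36 to 1.71, adjusted p = 0.304) and APOE by -0.61 (-1.48 to 0.25, adjusted p = 0.271).

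In uninjured cords the inhibitor, together with its procedure, went with more FABP1 and APOE and less LPL. Here 2 of the 7 genes rose and 1 fell, against a background in which 7.39% of all genes rose and 51.1% fell, so a single lower gene of 7 is below the share of all genes. FABP1 rose by 4.21 (3.18 to 5.24, adjusted p = 0.00120) and APOE by 1.82 (0.96 to 2.69, adjusted p = 0.00388). LPL fell by 3.61 on the log2 scale (95% interval -4.89 to -2.33, adjusted p = 0.00182), further than the median of all genes (-1.10). FABP1 and LPL passed under all 23 alternatives, and APOE under all but the replicate block. On scaled values, where 19.4% of genes rose and 17.8% fell, LPL fell by 2.71 (adjusted p = 0.00351) and FABP3 joined the genes that rose (1.97, adjusted p = 0.0237), having been at 1.03 (0.06 to 2.00, adjusted p = 0.0641) on TPM as deposited. APOA1 differed by -1.90 (adjusted p = 0.138) and APOD by -1.72 (adjusted p = 0.162). APOA1 passed with a pseudocount of 1 (adjusted p = 0.0278), with only the compared groups (0.0470) and without library 5 of 4 dpi inhibitor (0.0161). APOD passed with library weights, without uninjured library 1 (-2.94, adjusted p = 0.0228), without both libraries numbered 1, and without uninjured inhibitor library 6 (-2.79, adjusted p = 0.0310).

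Within inhibitor cords, injured against uninjured, none of the 7 genes passed the limma test, 5 of 7 had an unadjusted p under 0.05, and the backgrounds were 0.622% and 20.8% of all genes. The largest differences were 4.11 for APOD (1.87 to 6.36, adjusted p = 0.0849) and -3.06 for APOA1 (-5.37 to -0.75, adjusted p = 0.153). LPL differed by 1.80, FABP3 by 1.26 and FABP1 by 1.26, each with a 95% interval above 0, while APOE differed by -0.07 (-0.93 to 0.80, adjusted p = 0.942). APOD passed with library weights or the replicate block, without both libraries numbered 1, and without uninjured library 1 (adjusted p = 0.0301), the unnumbered uninjured library (0.0415) or uninjured inhibitor library 6 (0.0147). LPL passed without that last library as well. With library weights FABP1, FABP3 and LPL also passed as higher and APOA1 as lower. FABP1 and FABP3 passed as higher with the replicate block too.

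Against uninjured cords, 4 dpi inhibitor cords differed in 5 of the 7 genes: 3 rose and 2 fell, where 9.39% of all genes rose and 31.2% fell. FABP1 rose by 5.47 (4.43 to 6.50, adjusted p = 4.57e-05), FABP3 by 2.29 (1.32 to 3.26, adjusted p = 0.00386) and APOE by 1.76 (0.89 to 2.62, adjusted p = 0.00691). APOA1 fell by 4.96 on the log2 scale (95% interval -7.27 to -2.65, adjusted p = 0.00542) and LPL by 1.81 (adjusted p = 0.0293). The LPL call was lost with scaling (-1.14, adjusted p = 0.112), quantile normalization, the replicate block, and leaving out both libraries numbered 1. LPL also missed without uninjured library 1 or any library of 4 dpi inhibitor (adjusted p up to 0.109). The APOE call was lost with the replicate block. That of APOA1 was lost when scaling was combined with leaving out both libraries numbered 1. APOD differed by 2.39 (0.14 to 4.64, adjusted p = 0.0797). It passed with library weights, without the unnumbered uninjured library or without uninjured inhibitor library 6. The 3 comparisons with uninjured cords share the same 3 libraries, so their FABP1 values (4.79, 4.21 and 5.47) and APOE values (2.37, 1.82 and 1.76) are not independent of one another.

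**Figure D3:**
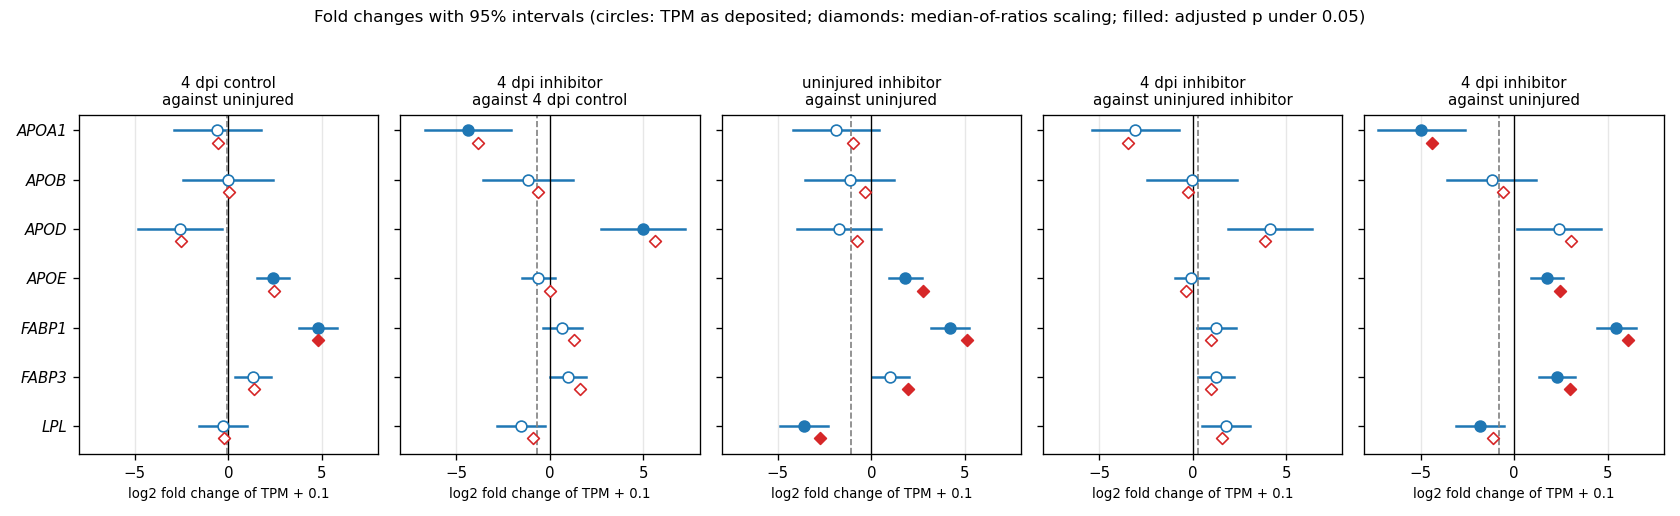
Log2 fold changes of the 7 genes in the 5 comparisons. Circles with 95% intervals are TPM as deposited, diamonds are values after median-of-ratios scaling, filled symbols have an adjusted p under 0.05 (limma), and the dashed line is the median of all genes tested. FABP1 lies at 4.79, 4.21 and 5.47 in the 3 comparisons with uninjured cords, and no filled diamond appears for 4 dpi inhibitor against 4 dpi control.

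Whether the inhibitor went with a different change in injured than in uninjured cords was tested as an interaction of injury and inhibitor. None of the 7 genes passed, 4 of 7 had an unadjusted p under 0.05 against 8.17% of all genes, and 0.0434% of all genes passed after adjustment. FABP1 had the 8th smallest p of the 13824 genes (interaction -3.53 on the log2 scale, 95% interval -4.99 to -2.08, adjusted p = 0.270), APOD the 17th (6.72, 3.54 to 9.90, adjusted p = 0.452) and APOE the 19th (-2.44, -3.66 to -1.21, adjusted p = 0.587). LPL was at 2.08 (0.27 to 3.90, adjusted p = 0.587). APOD passed without uninjured library 1 (adjusted p = 0.0462). With library weights APOD, APOE, FABP1, FABP3 and LPL passed. The signs follow from the inhibitor differences above: for FABP1 4.21 in uninjured and 0.67 in injured cords, for APOE 1.82 and -0.61, and for APOD -1.72 and 5.0. The -0.61 of APOE lay near the median of all genes in that comparison (-0.69) and was 0.02 on scaled values. There the APOE interaction was -2.75 (adjusted p = 0.515).

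Ratios of 2 of these genes within a library do not depend on how libraries are scaled. FABP1 amounted to 0.341% to 1.69% of the FABP3 level in uninjured libraries and to 10.2% to 11.8% in 4 dpi control libraries. It amounted to 3.94% to 16.0% in uninjured inhibitor and 5.80% to 16.5% in 4 dpi inhibitor libraries, so the 3 uninjured libraries were the lowest. The APOE level was 5.46 to 41.0 times that of LPL in uninjured libraries, 42.3 to 138 times in 4 dpi control, 141 to 1633 times in uninjured inhibitor and 116 to 259 times in 4 dpi inhibitor libraries. The uninjured group was again the lowest and did not overlap the others. These ratios were chosen after the values were seen and carry no test.

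Other genes that handle lipid were followed in 9 lists with 140 genes, of which 107 were tested. In 4 dpi control against uninjured cords 4 of the 107 rose (3.74%, against 0.861% of all genes) and 0 fell, and the median log2 fold change was -0.11 beside -0.08 for all genes. The 4 were TREM2, a phagocyte receptor that binds lipids and lipoproteins including ApoE, SOAT1, which esterifies cholesterol for storage, PLIN2, a coat protein of lipid droplets, and NPC2, which carries cholesterol out of lysosomes. TREM2 was at 10.0, 2.93 and 5.36 TPM in uninjured and 64.8, 30.2 and 39.4 TPM in 4 dpi control libraries and rose by 2.95 (adjusted p = 0.00273). SOAT1 was at 27.9, 14.9 and 18.4 TPM in uninjured and 98.9, 78.5 and 110 TPM in 4 dpi control libraries and rose by 2.26 (adjusted p = 0.00273). Neither gene's groups overlapped. PLIN2 rose by 1.88 (6.25 ± 0.556 to 23.7 ± 6.02 TPM, adjusted p = 0.00416). NPC2 rose by 1.01 (327 ± 29.9 to 658 ± 85.5 TPM, adjusted p = 0.0108), a call lost with scaling (adjusted p = 0.125) and without libraries 5 or 6 of 4 dpi control. All 4 calls were lost when only the 2 compared groups were fitted. FABP2, the intestinal fatty acid binding protein of mammals, was at 19.0, 56.9 and 5.76 TPM in uninjured and 81.3, 223 and 135 TPM in 4 dpi control libraries, groups that did not overlap, with a difference of 2.86 (1.50 to 4.23, adjusted p = 0.0616).

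With the inhibitor in injured cords, 1 of the 107 lipid genes rose and 6 fell (0.935% and 5.61%, against 0.629% and 3.19% of all genes), and the median was -0.75 beside -0.69 for all genes. DBI, the acyl-CoA binding protein, rose by 1.02, from 610 ± 63.1 to 1243 ± 212 TPM (adjusted p = 0.0429). PLTP, which transfers phospholipid between lipoproteins, fell by 1.60 on the log2 scale, from 52.6 ± 17.2 to 16.7 ± 1.05 TPM (adjusted p = 0.0429). With scaling both had an adjusted p of 0.0937 and none of the 107 passed, as none of all genes did. Leaving out 1 library at a time kept each of the 2 calls in 4 of 12 fits.

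In uninjured cords with the inhibitor 7 of the 107 rose and 59 fell (6.54% and 55.1%, against 7.39% and 51.1% of all genes). On scaled values 14 of the 107 rose and 25 fell, where 19.4% of all genes rose and 17.8% fell. Among those that rose were DBI (1.51, to 1355 ± 101 TPM, adjusted p = 0.00145), FABP2 (2.40, to 99.9 ± 22.6 TPM, adjusted p = 0.00802), TREM2 (1.77, adjusted p = 0.00478) and PLIN2 (1.23, adjusted p = 0.00421). Of 12 lipases and lipase regulators 0 rose and 8 fell (5 on scaled values), among them LIPG, the endothelial lipase (14.7 to 1.73 TPM by group mean, log2 fold change -2.76), and LMF2, a factor of the family that matures lipases (110 to 30.5 TPM, -1.80). Of 19 lipoprotein receptors and partners 2 rose and 12 fell (2 and 4 on scaled values), including SORT1, a sorting receptor (25.7 to 3.19 TPM, -2.95), and LSR, a lipoprotein receptor of liver in mammals (22.3 to 2.51 TPM, -3.12). Of 11 genes of cholesterol efflux and lysosomal export 0 rose and 9 fell (1 and 5 on scaled values), including the exporters ABCA1 (12.9 to 3.60 TPM, -1.82) and ABCG1 (14.4 to 0.466 TPM, -4.34). All 11 genes of fatty acid uptake and activation lay below 0, where the median of all genes was -1.10. None of 12 neuron or 10 skin and epidermis genes lay above 0 either. Of the 11, 8 fell (3 on scaled values), among them CPT1A, the gatekeeper of mitochondrial fatty acid oxidation (27.3 to 3.25 TPM, -3.44). LIPG, LMF2, SORT1, LSR, ABCA1, ABCG1 and CPT1A also passed as lower on scaled values. In the remaining lists, 1 of 9 other apolipoproteins rose and 3 fell (2 and 2 on scaled values). Among 15 other intracellular lipid-binding proteins 3 rose and 3 fell (6 and 1). For 14 genes of lipoprotein assembly and export these counts were 0 and 7 (1 and 1). They were 1 and 2 (2 and 1) for 7 lipid droplet proteins, and 0 and 7 (0 and 3) for 9 lipid-sensing nuclear receptors.

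In injured against uninjured cords with the inhibitor, SOAT1 rose by 1.73 (15.4 ± 4.77 to 50.8 ± 13.8 TPM, adjusted p = 0.0326) and NPC2 by 0.91 (435 ± 61.3 to 815 ± 39.9 TPM, adjusted p = 0.0370). They were the only ones of the 107 to pass, 1.87% against 0.579% of all genes, and the NPC2 call was lost with scaling (adjusted p = 0.190). Against uninjured cords, 13 of the 107 rose and 35 fell in 4 dpi inhibitor cords (12.1% and 32.7%, against 9.39% and 31.2% of all genes). On scaled values 16 rose and 13 fell, with a median of -0.33 beside -0.14 for all genes. The share of all genes called on scaled values is not given for this comparison. PLIN2 (2.37, adjusted p = 0.000361), NPC2 (1.32, adjusted p = 0.000817), DBI (1.38, adjusted p = 0.00105), TREM2 (2.51, adjusted p = 0.00202) and FABP2 (3.15, adjusted p = 0.00415) were among those that rose. PLTP (-1.97, adjusted p = 0.00140) was among those that fell. None of the 107 passed in the interaction.

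**Figure D4:**
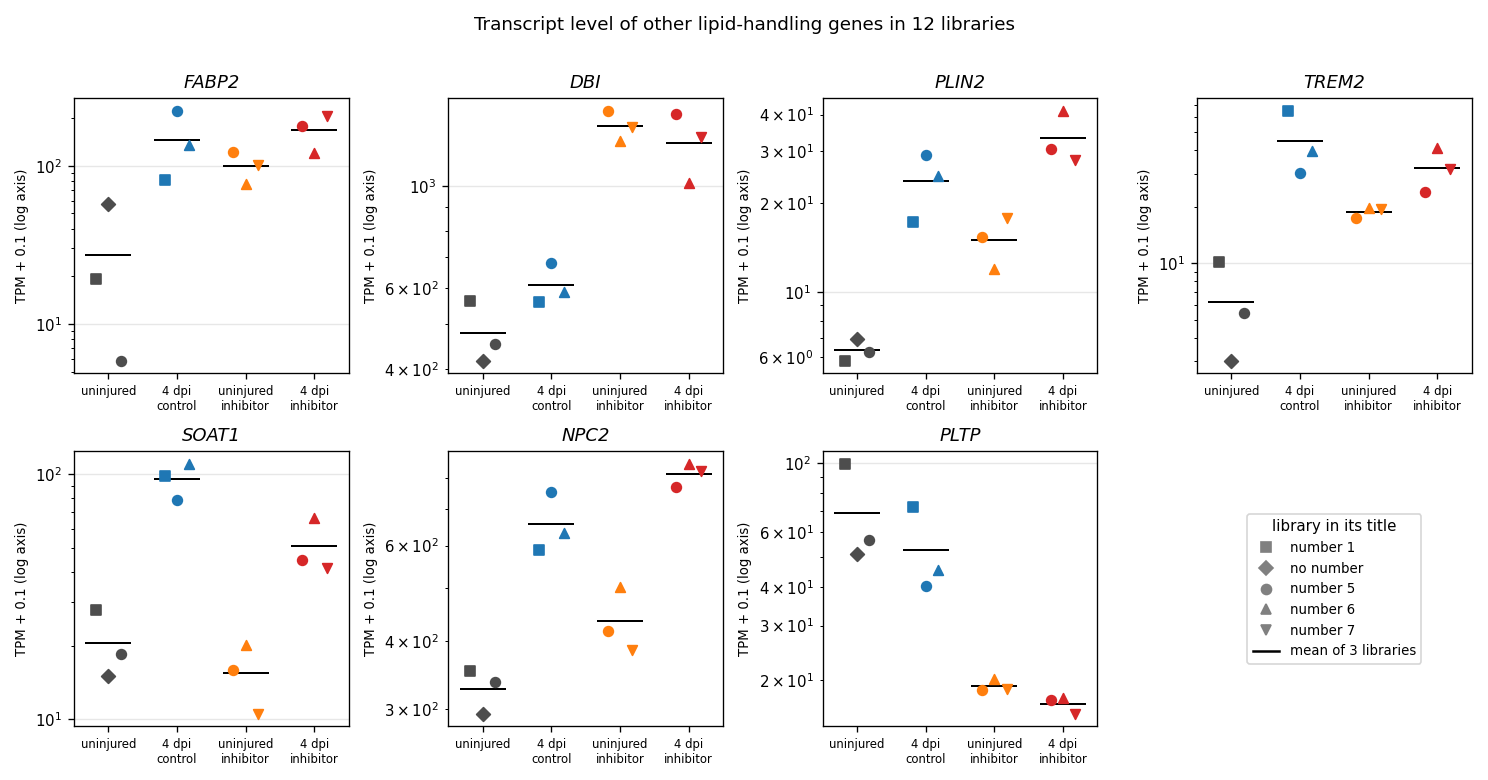
TPM + 0.1 on a log axis for 7 other lipid genes in each of the 12 libraries, by group, drawn as for the 7 genes above with the bar at the mean of 3 libraries. SOAT1 was at 78.5 to 110 TPM in 4 dpi control libraries and at 10.4 to 27.9 TPM in all 6 libraries without injury, and PLTP was at most 20.1 TPM in all 6 inhibitor libraries.

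Genes with the most similar profile were sought for each of the 7, by the root mean square difference between centred log2 profiles over the 12 libraries after scaling, and are a description. APOD was closest to ZPLD1, which encodes a zona pellucida-like domain protein, at a difference of 0.45 where APOD's own profile had a root mean square of 2.46. The next gene, PRSS1, lay at 1.40. APOD amounted to 17.3% to 44.9% of the ZPLD1 level in all 12 libraries. FABP1 was closest to PLBD1, a lysosomal phospholipase B-like protein of granulocytes (0.64, own 2.43), and LYZ, lysozyme (0.78). FABP3 was closest to TNFAIP8L2 (0.26) and CAMP, which encodes the cathelicidin of granulocyte granules (0.28, own 1.28). APOE was closest to SPACA4 (0.51) and the complement component C9 (0.52, own 1.26), and LPL to the collagen COL6A5 (0.34) and PATL1 (0.35, own 1.21). APOB was closest to SHISA9 (0.46) and STK32C (0.47, own 1.01). APOA1 was closest to HLA-DQB1 and RIMS2 (both 0.96, own 2.15). In 4 dpi inhibitor library 5 APOA1 and HLA-DQB1 were listed at 0 and RIMS2 was at 0.0671 TPM. The APOA1 matches thus rest partly on values at or near 0 in that library. The points share their libraries and scaling factors.

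**Figure D5:**
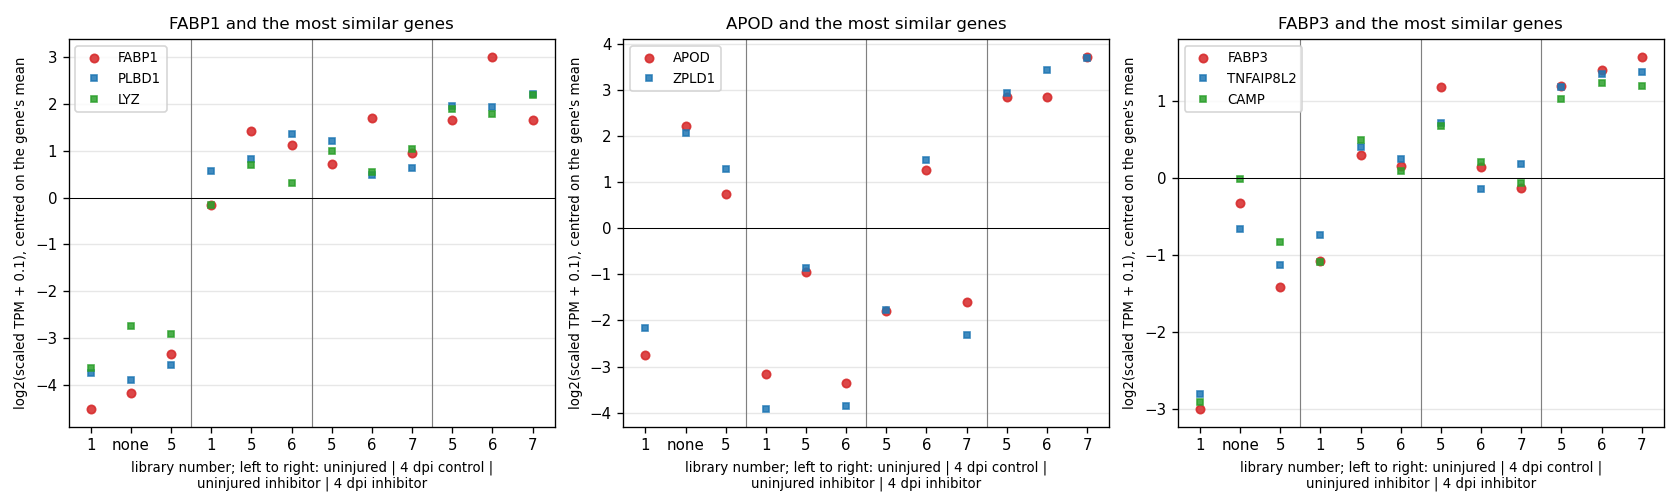
Centred log2(scaled TPM + 0.1) of FABP1, APOD and FABP3 and of the genes most like them in each of the 12 libraries, left to right by group and number. APOD and ZPLD1 (root mean square difference 0.45) were close within groups as well as between them, whereas FABP1 and LYZ (0.78) shared mainly the gap between the uninjured libraries and the rest.

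Markers of other cell types were read beside these results. The summed level of 18 microglia and macrophage genes was 579 to 1281 TPM in uninjured, 1346 to 2234 in 4 dpi control, 653 to 881 in uninjured inhibitor and 1188 to 1644 in 4 dpi inhibitor libraries. Of the 18, 8 rose and 0 fell in 4 dpi control against uninjured cords, where 0.861% of all genes rose and 0.0434% fell. In uninjured inhibitor against uninjured cords 7 rose and 2 fell, against 7.39% and 51.1% of all genes. On scaled values 12 rose and 0 fell there, against 19.4% and 17.8% of all genes. Of 11 ependymoglia and astrocyte genes tested, 0 rose and 0 fell in 4 dpi control against uninjured cords. With so few of all genes called in that comparison, 0 of 11 does not set this list apart. In uninjured inhibitor against uninjured cords 1 of the 11 rose and 7 fell (3 and 2 on scaled values). The part of either set of cells in the higher FABP1, APOE, FABP3, TREM2 and PLIN2 was not tested. In uninjured inhibitor cords the microglia and macrophage sum lay within the uninjured range, while MPEG1 was at 66.9 against 457 TPM by group mean, CYBB at 47.7 against 13.5 TPM and TYROBP at 36.9 against 7.49 TPM. Of 20 liver and plasma protein genes 12 had a row, and ALB was at most 3.44 TPM and TTR at most 7.09 TPM, with ALB listed at 0 in 4 libraries and FGB in 8. Their summed level, mostly from TF and HPX, was 92.6 to 404 TPM in uninjured, 367 to 961 in 4 dpi control, 86.1 to 195 in uninjured inhibitor and 203 to 312 in 4 dpi inhibitor libraries. Of the intestinal markers CDX1 had no row, CDX2 was listed at 0 in 11 libraries, ALPI and SI in 10 each. The others were above 0 in every library. LGALS4 was at 154 to 512 TPM, VIL1 at 13.6 to 189, FABP2 at 5.76 to 223 and CDH17 at 0.578 to 3.12. Of the 8 adipocyte markers PLIN1 had no row and ADIPOQ was at 43.4 to 219 TPM. The summed level of the other 7 was 173 to 370 TPM in uninjured and 177 to 258 in 4 dpi control libraries. It was 115 to 152 in uninjured inhibitor and 126 to 161 in 4 dpi inhibitor libraries. On TPM as deposited all 6 inhibitor libraries thus lay below the 6 others, as for LPL. Divided by the median-of-ratios factors, the sum did not keep this separation, whereas LPL did. Uninjured library 1 (173 TPM, factor 1.80) then lay below uninjured inhibitor library 5 (115 TPM, factor 0.669). Within this sum LEP went the other way in injured cords, at 37.0 TPM in 4 dpi inhibitor and 20.0 in 4 dpi control cords by group mean. The summed level of 15 skeletal and cardiac muscle genes was 10154 to 39910 TPM in uninjured and 8401 to 17826 in 4 dpi control libraries. It was 3306 to 7611 in uninjured inhibitor and 5909 to 6329 in 4 dpi inhibitor libraries. On TPM as deposited it was lower in the same 2 groups as LPL. This separation was not particular to adipocytes and muscle. Skin and epidermis genes summed to 1737 to 3354 TPM in uninjured and 1606 to 2385 in 4 dpi control libraries. They summed to 576 to 762 TPM in uninjured inhibitor and 849 to 1587 in 4 dpi inhibitor libraries. Divided by the median-of-ratios factors, the muscle and skin sums of inhibitor libraries overlapped those of the other libraries too. The part of adipocytes and muscle in the levels of LPL was not tested, nor that of muscle in the levels of FABP3, which was highest in 4 dpi inhibitor libraries.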

How the data were processed

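RNA sequencing of axolotl spinal cord gave 12 libraries in 4 groups of 3. Per the methods of the study, the authors built contigs de novo (Trinity) from the pooled reads, collapsed identical ones (cd-hit-est) and named each after its best human protein match (BLASTX). Reads were mapped to the contigs by Bowtie 0.12.1 and quantified by RSEM 1.1.6, and the estimates were added up per symbol and length-corrected. The deposited TPM values are the product of these steps; the authors' own tests, with DESeq2 1.16.1 on counts, are not used here. The deposited table holds TPM only, so depth is unknown, no counting interval is given, and TPM shifts with the makeup of a library. For 25 genes a symbol that had turned into a date was put back. RefSeq names come from the axolotl annotation of another assembly, and no coordinates are given.

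The test was run in limma 3.58.1 (R 4.3.3) on log2(TPM + 0.1). The 12 libraries entered 1 fit with a mean for each group (8 residual degrees of freedom) and variances moderated by empirical Bayes along mean level. P-values are two-sided and adjusted by Benjamini-Hochberg over the 13824 genes that averaged 1 TPM or more. An adjusted p under 0.05 is a call. The script was tested on simulated data. Named are the chosen genes, per list up to 4 genes with the smallest adjusted p and the most abundant one, and the 2 genes most similar in profile; from these, the genes plotted and most of those quoted were picked after their values were seen. The genes and lists were chosen with earlier results of these data known. Alternatives were other filters (none, or 5 TPM), a pseudocount of 1, scaling by median-of-ratios or quantiles, weights per library, no trend in the variances, a fit to the compared groups alone, a replicate block, and dropping single libraries. Dropping both libraries numbered 1, with and without scaling, was chosen after seeing the data.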

Additional observations from a re-analysis of the deposited data

How the results depend on the processing

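Values for the 7 genes kept their side of the threshold in 862 of 953 recomputed values. Another 44 lost the call, 47 gained it, and no called value changed sign. The 862 include values that changed sign without being called. APOE in 4 dpi inhibitor against 4 dpi control, for example, was at -0.61 as deposited and 0.02 with median-of-ratios scaling. The counts of these genes called moved as follows, and were as in the report under the alternatives not named. For 4 dpi control against uninjured (2), the count was 1 with median-of-ratios scaling, 4 with library weights, 1 with only the compared groups, and 1 to 3 without single libraries. For 4 dpi inhibitor against 4 dpi control (2), it was 0 with no filter, with no variance trend, with either median-of-ratios or quantile scaling, when leaving out both libraries numbered 1, and that with scaling; it was 5 with library weights, 4 with only the compared groups, and 0 to 2 without single libraries. For uninjured inhibitor against uninjured (3), it was 5 with library weights, 4 with a pseudocount of 1, with median-of-ratios scaling, with only the compared groups and when leaving out both libraries numbered 1, with or without scaling, and 3 to 5 without single libraries. For 4 dpi inhibitor against uninjured inhibitor (0), it was 5 with library weights, 1 leaving out both libraries numbered 1, with or without scaling, and 0 to 2 without single libraries. For 4 dpi inhibitor against uninjured (5), it was 7 with library weights, 4 with median-of-ratios or quantile scaling, 4 leaving out both libraries numbered 1, 3 when that was combined with scaling, and 4 to 6 without single libraries. For the interaction (0), it was 5 with library weights and 0 to 1 without single libraries. The estimation of library weights stopped before its convergence tolerance. Where a fit leaves out a library, the others of its group and the pooled spread of all groups carry it.

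The replicate block gave 3, 1, 3, 3 and 3 genes in the 5 comparisons in the order above and 0 in the interaction. Same-numbered libraries of different groups had correlations of their deviations from -0.307 to 0.507, so the numbers were not taken to pair the samples, and a call lost under the block is not read as a weaker effect.

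Among the other named genes, called values changed sign for LMF2 (0.52), KRT15 (1.02) and T (1.75) with library weights in 4 dpi control against uninjured, for DGAT1 (0.019 with median-of-ratios scaling, 0.041 with quantile normalization) and FBLN1 (0.017 with median-of-ratios scaling) in uninjured inhibitor against uninjured, and for CPT2 (0.023 with quantile normalization) in 4 dpi inhibitor against uninjured. Counts over all genes moved further: 4 dpi inhibitor against 4 dpi control called 441 genes lower, and 0 to 2471 without single libraries. Values under about 1 TPM, as for APOB, set a limit because the depth behind them is unknown.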
